A study of Komagataella phaffii CBS 7435 with 54 samples.

Results

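The comparison described here is the entry into retentostat cultivation: transcript levels of the yeast Pichia pastoris after 21 h of biomass retention were set against those in steady-state chemostats at a dilution rate of 0.025 h-1, the slowest chemostat of the series. Its members are the arrays whose titles give a retentostat run time of 21 h or a chemostat growth rate of 0.025, 6 arrays of each, which makes 12 of the 54 arrays of the series. Each group has 3 numbered replicates, and each replicate was hybridized on 2 arrays together with a pool of RNA from many growth conditions, once with the culture in Cy3 and the pool in Cy5 and once with the dyes exchanged. All groups, controls included, were of the same strain, which the labels give as CBS 7435. Per the methods it was a single isolate of that strain in which a part of FLO8 and of its promoter had been exchanged for the KanMX marker. The cultures were aerobic, limited by glucose and held at the same temperature and pH.

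In a chemostat, fresh medium enters and culture leaves at the same rate, so that at steady state the specific growth rate equals the dilution rate set by the pump. In a retentostat the effluent is drawn through a filter that keeps the cells in the vessel. Biomass then accumulates on a constant or falling supply of glucose, each cell receives less and less of it, and the growth rate declines toward zero while the substrate covers maintenance. P. pastoris is a methylotrophic yeast used for the secretion of recombinant proteins, and slow growth is a usual state of such processes. The FLO8 product is a transcription factor of flocculation and filamentous growth, and the disruption was made to limit growth on surfaces and on the filter.

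Some features of the design bear on every value below. Per the paper, the chemostats were run in small bioreactors of one system, and the retentostats were started from a chemostat phase at 0.025 h-1 in larger vessels of another system with faster stirring and with less glucose entering over time. The first day of retention can therefore not be told apart from the bioreactor system, the culture volume, the stirring and the feed. The paper made no direct comparison between samples of the 2 systems and set each against the chemostat at 0.1 h-1. The direct contrast used here departs from that. The paper describes duplicate cultures with RNA labeled in triplicate, so the 3 replicates cannot all be separate cultures, and SD, n and p values refer to the spread between these replicates. The scanner output and the gene list used here pair the array identifiers with no gene names or functions. Identifiers are therefore printed for the 2 largest changes in each direction and for 1 further gene singled out for its overlap, and no functional group or regulatory sequence is described.

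The 12 arrays were alike in the share of probes above background but not in brightness or in the agreement within a group. Between 97.0% and 98.4% of the 5371 probes had a culture signal well above background, and the lowest correlation of log2 ratios between any 2 of the 12 arrays was 0.80. The lowest correlation of an array within its own group was 0.899 to 0.947 at 21 h. In the chemostat it was 0.954 to 0.965. On all 12 arrays, the pool channel named by the labels correlated with the pool of other arrays at 0.998 or higher. The culture channel did so at 0.957 or lower. The reference was the mean pool channel in the same dye, over those of the other 42 arrays that had it. The culture channel was dimmer at 21 h: with the culture in Cy3 the median spot signal was between 1440 and 1903 units at 21 h and between 3826 and 4525 units in the chemostat. With the culture in Cy5 these ranges were 3232 to 3637 and 5156 to 7218 units. The pool channel of the same arrays had overlapping ranges in both groups. A log2 ratio of culture over pool was formed after normalization within each array, and the part of the difference in brightness in the changes below was not tested. The number of arrays limits the precision. The median SD between replicates was 0.074 at 21 h and 0.055 in the chemostat on the log2 scale, and the median standard error of a difference was 0.062.

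After 21 h of retention, 59 of the 5371 probes passed both criteria of differential expression in limma, a change of more than 2-fold and a Benjamini-Hochberg adjusted p below 0.05, which is 1.1% of the probes tested. Transcript levels were higher at 21 h for 53 of them (0.987% of all probes) and lower for 6 (0.112%). The changes were small: the median was 2.20-fold among the 53 and 2.44-fold among the 6, 46 of the 53 were below 2.5-fold, and the largest change of all was 3.86-fold. All 59 probes were well above background on all 12 arrays, and none was saturated on any of them. The replicates of both groups did not overlap for 58 of the 59, in a data set in which they did not overlap for 63.4% of all probes. The exception was Pipas_chr2-1_0001, singled out for this reason after its values were seen, with a lowest value of -0.77 at 21 h and a highest of -0.74 in the chemostat.

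**Figure D1:**
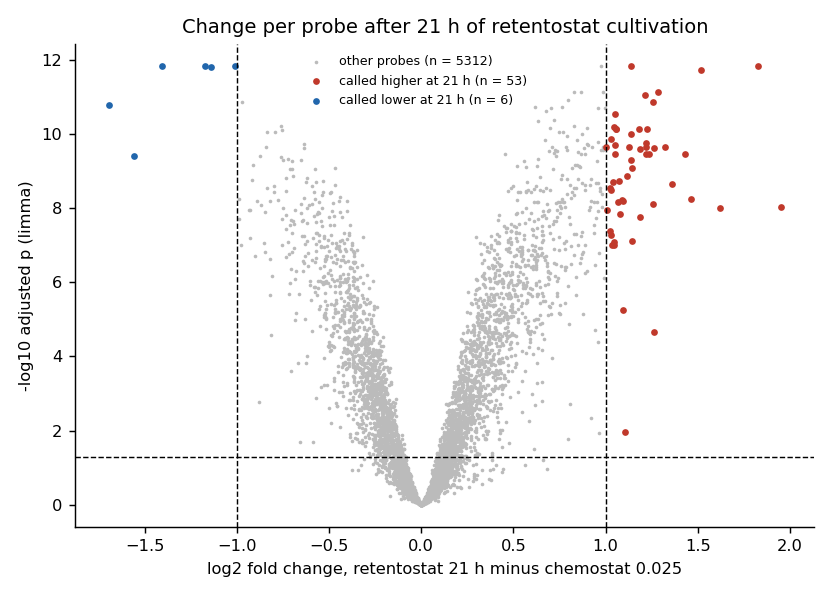
Change of each of 5371 probes (x axis, log2 fold change of retentostat 21 h over chemostat 0.025) against the negative log10 of its adjusted p value from limma (y axis). Dashed lines mark a 2-fold change and the threshold on the adjusted p, and the 53 probes called higher and 6 called lower lie outside the vertical lines.

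Small changes were far more common than large ones. At an adjusted p value below 0.05 alone, limma passed 3116 probes, or 58% of all, in nearly equal numbers of 1656 higher and 1460 lower, and 2690 of these changed by less than 1.5-fold. Past 1.5-fold the count was 426, with 318 higher and 108 lower. Higher transcript levels thus made up 53.1% of the probes that passed on the p value alone, 74.6% past 1.5-fold and 89.8% past 2-fold. The median change over all probes was 0.015 on the log2 scale, and since LOESS centers the ratios of every array, a shift common to most genes would not be seen in these values. With arrays centered on their median in place of LOESS, 51 probes were called, 40 higher and 11 lower, and 41 of them were among the 59.

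Many of the calls lay close to the 2-fold line. Between 0.9 and 1.0 on the log2 scale, just short of it, were 36 higher and 10 lower probes with an adjusted p value below 0.05, and between 1.0 and 1.1 were 23 higher and 1 lower. The count also depended on replicate 1 of the 21 h group: without it, 92 probes were called, 80 higher and 12 lower, and these included all 59. This replicate shares its slide with replicate 1 of the chemostat, and the slide is the only one that holds both groups. On that slide, 52 of the 53 probes were higher at 21 h and 25 of them by more than 2-fold, with a median log2 change of 0.99, and all 6 lower probes were lower, with a median of -1.33. The 2 scanners used each held both groups. On the scanner that read replicates 1 and 2, the median change was 1.14 for the 53 probes and -1.27 for the 6, and on the scanner that read replicate 3 it was 1.15, over 52 probes with a value, and -1.27. The 59 probes were chosen on the means of these same replicates. Agreement between slides and scanners in direction and size is therefore in part fixed by the choice.

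The genes with the largest changes show how differently the same step could follow on what came before. They were taken from called probes whose replicates did not overlap between both groups, as was the case for 63.4% of all probes. The largest rise was that of Pipas_chr2-2_0208. Its log2 ratio to the pool was 0.72, 0.76 and 0.34 in the replicates of the chemostat and 2.21, 2.78 and 2.68 in those at 21 h. Replicate 1 was the lowest of those at 21 h. The difference was 1.95 ± 0.19 (SE, n = 3 per group, adjusted p = 9.49e-09), or 3.86-fold. It was 1.87 on the arrays with the culture in Cy3, 2.03 on those with the culture in Cy5 and 1.49 within the shared slide. The gene was also higher in the slowest chemostat than at 0.05 h-1, by 1.67 ± 0.19 (SE, n = 3 per group, adjusted p = 6.1e-07 in limma), so that entry into the retentostat added a step of similar size to the preceding one. The difference between both steps was 0.28 ± 0.33 (SE), with an adjusted p of 0.562. Its mean level was -1.98 ± 0.13 (SD, n = 3) at 0.1 h-1 and then remained between 2.28 and 2.83 from 21 h to 545 h.

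Pipas_chr4_0183 also rose in the chemostat step and at the entry, and it rose once more after the first day. It measured 0.42, 0.47 and 0.07 in the chemostat replicates and 2.01, 2.28 and 2.15 at 21 h. The rise was 1.83 ± 0.10 (SE, n = 3 per group, adjusted p = 1.53e-12), or 3.55-fold, and 1.59 within the shared slide. The preceding chemostat step was 1.66 ± 0.10 and differed from the step into the retentostat by 0.16 ± 0.17 (SE, adjusted p = 0.508 in limma). From 21 h to 65 h the increase was 1.27 ± 0.10 (SE, n = 3 per group, adjusted p = 1.19e-09 in limma), and then lay between 3.41 and 3.63 to the end of the run. From -3.59 ± 0.10 (SD, n = 3) at 0.1 h-1 its level thus climbed with every slower chemostat and into the retentostat. Its identifier is not among the locus tags of the strain GS115 gene table.

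Both of the largest falls were different from the chemostat step before them. Pipas_chr2-2_0113 measured -1.11, -1.28 and -1.17 in the chemostat replicates and -2.70, -3.05 and -2.89 at 21 h. The change was -1.69 ± 0.11 (SE, n = 3 per group, adjusted p = 1.71e-11), a fall of 3.24-fold, against -0.55 ± 0.11 from 0.05 to 0.025 h-1. The difference of both steps was -1.15 ± 0.19 (SE, adjusted p = 0.000131 in limma). Its level declined through all 9 conditions, from 0.071 ± 0.026 (SD, n = 3) at 0.1 h-1 to -4.18 ± 0.14 at 545 h, with the largest single step at the entry into the retentostat.

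Pipas_chr1-3_0229 passed the test at the entry and in neither of the adjacent steps. It measured -0.76, -0.87 and -0.98 in the chemostat replicates and -2.54, -2.43 and -2.31 at 21 h. The change was -1.56 ± 0.12 (SE, n = 3 per group, adjusted p = 3.86e-10), a fall of 2.95-fold, and -1.78 within the shared slide. The step from 0.05 to 0.025 h-1 was -0.014 ± 0.12 (adjusted p = 0.931 in limma) and the step from 21 h to 65 h was 0.16 ± 0.12 (adjusted p = 0.295), and the difference between the entry and the preceding step was -1.55 ± 0.21 (adjusted p = 2.1e-05). In the 4 chemostats its mean lay between -0.87 and -0.46, and at the 5 retentostat times between -2.80 and -2.17. The gene next to it on one side in the GS115 gene order moved the other way, by 0.91 ± 0.09 (SE, n = 3 per group, adjusted p = 9.33e-09), and its neighbor on the other side by 0.16 ± 0.09 (adjusted p = 0.115).

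**Figure D2:**
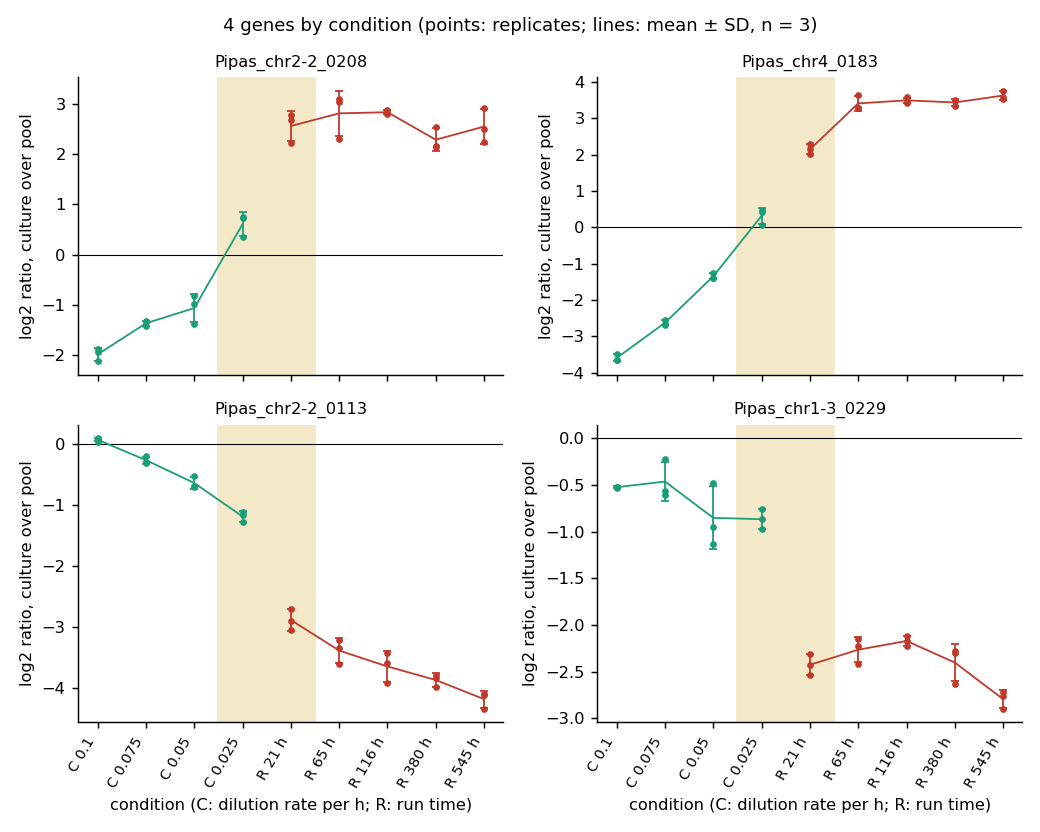
Log2 ratio of culture over pool (y axis) in the 9 conditions (x axis) for the 2 genes with the largest rise (top) and the 2 with the largest fall (bottom) at 21 h. Points are replicates and lines join means ± SD (n = 3), chemostats in green and retentostat times in red. The shaded pair is the comparison described, and replicates without overlap in it were a condition for showing a gene.

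Whether the entry into the retentostat differed from the chemostat step before it was tested for every probe as the difference between both steps, 21 h minus 0.025 h-1 and 0.025 minus 0.05 h-1. By the same criteria, limma called 43 probes (0.801% of all), with a positive difference for 38 and a negative one for 5. On the p value alone, 1389 probes (25.9%) passed, 717 with a positive and 672 with a negative difference. The sign compares the 2 steps and does not give the direction of the change at the entry itself. Of the 53 probes called higher at the entry, 23 were among the 43, and of the 6 called lower, 3 were. These probes were chosen on the entry step, which is a part of the difference. The genes Pipas_chr2-2_0113 and Pipas_chr1-3_0229 were among the 43, and the other 2, with the largest rises, were not. These 2 had risen by 1.67 and 1.66 in the chemostat step, well above the median of 0.23 for the 53. For the 6 that median was -0.29. The replicates at 0.025 h-1 enter both steps, and only the step into the retentostat crosses from one bioreactor system to the other.

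The sizes of the changes in 3 successive steps were set side by side. The SD of the log2 change over all 5371 probes was 0.33 at the entry into the retentostat, 0.23 from 0.05 to 0.025 h-1 and 0.26 from 21 h to 65 h. The middle 98% of the probes lay between -0.71 and 0.99 at the entry, against -0.48 and 0.64 in the step before and -0.62 and 0.74 in the step after. Changes beyond 0.5 on the log2 scale were seen for 611 probes at the entry, for 183 in the step before and for 343 in the step after. The steps share replicates, span unequal differences of growth rate and were not tested against each other as whole distributions. By the average growth rates in the paper, growth slowed by less in absolute terms at the entry than in the chemostat step before. As a ratio of rates the slowing was similar in both. Only the entry crosses from one bioreactor system to the other. The part of growth rate or of bioreactor system in these sizes was not tested.

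**Figure D3:**
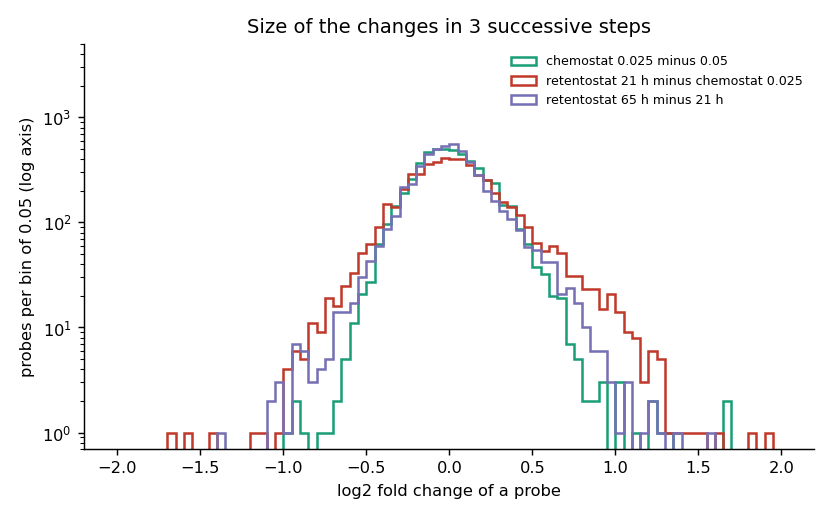
Number of probes (y axis, log scale) per 0.05 of log2 fold change (x axis) for 5371 probes in the chemostat step from 0.05 to 0.025 h-1, the entry into the retentostat and the step from 21 h to 65 h. The entry has the widest distribution, with an SD of 0.33 against 0.23 and 0.26.

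The 53 genes with higher transcript levels at 21 h were mostly low in the chemostats relative to the pool. Their median log2 ratio to the pool was -1.97 at 0.1 h-1, -1.86 at 0.075, -1.46 at 0.05 and -1.28 at 0.025 h-1, and 5 of the 53 were above the pool at 0.025 h-1. At 21 h the median was -0.14 with 22 genes above the pool. It was 0.35 at 65 h (36 genes above the pool) and 0.31 at 116 h (37 genes), and then 0.081 at 380 h and -0.062 at 545 h. The condition with the highest mean was 65 h for 21 genes, 116 h for 22, 545 h for 6, 380 h for 2 and 21 h itself for 2. The genes were chosen on the levels at 21 h and at 0.025 h-1, so that the order of these 2 conditions is fixed by the choice and the others describe the course.

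The 6 genes with lower levels at 21 h stayed below their level at 0.025 h-1 at all later times. Their median log2 ratio to the pool was -0.070 at 0.1 h-1, -0.36 at 0.075, -0.75 at 0.05, -1.03 at 0.025 h-1 and -2.48 at 21 h. It was then -2.25 at 65 h, -2.21 at 116 h, -2.25 at 380 h and -2.46 at 545 h. Relative to each gene's own level at 0.025 h-1, the median was -1.29 at 21 h, -1.50 at 65 h, -1.64 at 116 h, -1.74 at 380 h and -1.93 at 545 h. At 65 h, 116 h and 380 h, 2 of the 6 genes were above their level at 21 h and 4 were not. For 5 of the 6 the lowest mean was at 545 h, and for 1 at 21 h. Over all 5371 probes the same median stayed between -0.036 and 0.041 in all conditions. LOESS centers the ratios of every array, so a level median over all probes follows from the normalization.

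**Figure D4:**
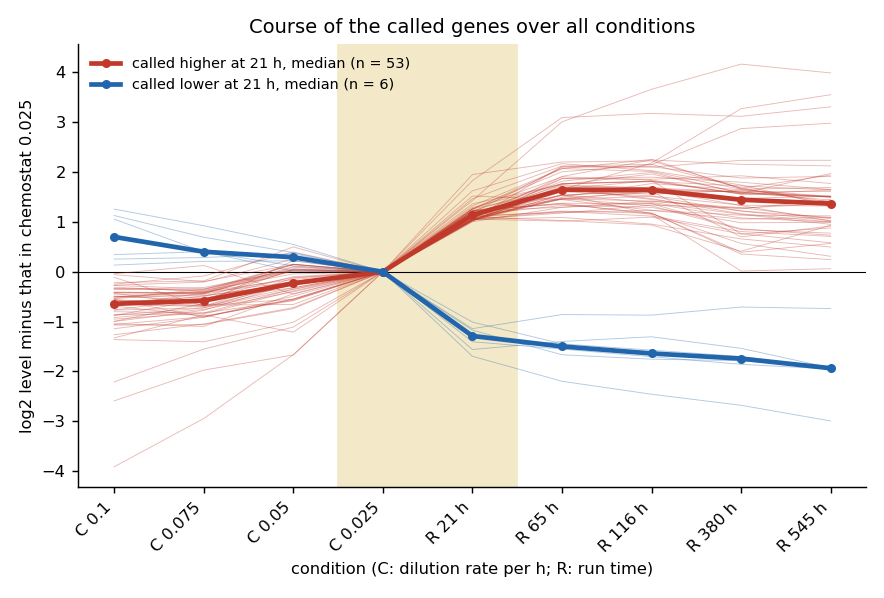
Mean log2 level of each called gene relative to its level in the chemostat at 0.025 h-1 (y axis) over the 9 conditions (x axis). Thin lines are genes, thick lines medians of the 53 genes called higher (red) and the 6 called lower (blue) at 21 h. Of these medians, that of the higher genes is 1.14 at 21 h and 1.65 at 65 h, and the choice of the genes fixes the shaded pair.

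The called genes were spread over the genome and over the range of signals. By the chromosome number in the array identifier, 18 were on chromosome 1, 17 on chromosome 2, 7 on chromosome 3 and 15 on chromosome 4, or 1.2%, 1.24%, 0.56% and 1.51% of the probes there, and 2 had no chromosome in the identifier. The median change of all probes of a chromosome was between 0.0045 and 0.022. When probes were divided in 4 equal parts by their mean culture signal, the brightest part held 25 called probes (1.86%), the next 8, and both dimmer parts 13 each. The 6 lower genes were all in the 2 brighter parts.

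Changes were only weakly shared between neighboring genes. In the GS115 gene order, with which 55 of the 59 called probes could be matched, no adjacent pair had both genes called, and 1 pair with a single gene between them did. Across 5036 adjacent pairs of genes, which are not independent of each other, Pearson's r of the log2 change was 0.112 and Spearman's rho 0.113. At a distance of 2 genes Pearson's r was 0.031, and at a distance of 10 genes 0.0076. All pairs share the same 12 arrays, and these values are descriptions without a test.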

How the data were processed

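RNA of P. pastoris cultures was compared with a pool on 2-color Agilent arrays. The authors deposited scanner output (Feature Extraction 11.5.1.1) with median spot and background intensity per channel, unnormalized, and with log10 ratios of red over green that the scanner software had normalized. They also deposited log2 ratios per probe, made with normexp, LOESS and Aquantile steps in limma, per the methods. Among these, all 6 columns of 21 h, and 18 of 54, ran opposite to the scanner output of their array (r from -0.97 to -0.94 at 21 h), so the scanner output was used with the dyes of the labels. The genome build is not given in the sources used here. Columns with fold changes and p values of the paper's supplement were not used.

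Intensities were corrected with normexp (offset 50) and LOESS in limma 3.58.1 (R 4.3.3, statmod 1.5.0, data.table, version 1.17.8). The 536 control spots per array and 0.676% outlier spots were left out. Spots were averaged per probe (5311 with 2 spots, 60 with 30), then the 2 arrays of a replicate. One linear model of 27 replicates in 9 groups (18 residual and 5.38 prior degrees of freedom) was followed by eBayes and Benjamini-Hochberg adjustment over 5371 probes. Of 5318 systematic names, 5040 probes matched a locus tag of the RefSeq gene list of GS115 (assembly ASM2700v1), which holds no names or functions, and the part of the paper's supplement read here holds no names for them, so planned gene lists and promoter motifs were not used. Printed identifiers are the 2 largest rises and falls among called probes above background on all arrays of the higher group and without overlap, plus 1 called probe with overlap. The comparison, lists and rules were chosen with earlier results of these data known. The procedure was also run on simulated data with 200 changed probes. All of these changes were set clear of the 2-fold line, so that run does not bear on calls close to it.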

Additional observations from a re-analysis of the deposited data

Results flagged for a closer look

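The step into the retentostat differed from the preceding chemostat step, by the test of that difference in limma, for 43 probes past 2-fold (0.801% of all). Among them were 23 of the 53 probes called higher at the entry and 3 of the 6 called lower. Both lists were chosen on the entry step, which is a part of the difference, so this overlap is in part fixed by the choice. The 3 lower probes include the 2 largest falls. For these 2 the difference of the steps was -1.15 on the log2 scale (Pipas_chr2-2_0113) and -1.55 (Pipas_chr1-3_0229). Both were lower in 3 of 3 replicates at 21 h than in any chemostat replicate at 0.025 h-1, a condition for naming them. Replicates of both groups did not overlap for 63.4% of all probes. The change of bioreactor system falls in one of the steps only and cannot be told apart from it.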

How the results depend on the processing

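The count of 59 called probes was recomputed under 27 settings and stayed within 1.5 times in 22, from 43 with slide as a fixed block to 87 on the arrays with the culture in Cy3. It was 5 in a test against a 2-fold change, 426 with a 1.5-fold criterion and 3116 without one, and 47 to 92 when 1 replicate was left out, with 92 without replicate 1 of 21 h. The count of 43 for the difference of the steps was 67 with median centering, 70 with the scanner software's ratio, 271 at 1.5-fold, 1389 without a fold criterion, and 38 to 50 with a replicate left out. The test of that difference against 2-fold (treat in limma) called 0, while 9 had an unadjusted p under 0.05. The deposited log2 table as it stands gave 1737 (953 higher, 784 lower) and 7 calls and turned the sign of Pipas_chr2-2_0208 (-3.17), Pipas_chr4_0183 (-2.46), Pipas_chr2-2_0113 (4.08) and Pipas_chr1-3_0229 (3.31). With its opposite columns turned it gave 58 and 46 calls. Under all other settings the 4 genes kept their direction, and only Pipas_chr1-3_0229 missed the threshold, in the test against 2-fold. With replicate number as a block, 59 and 43 were called and no call changed. The labels do not say whether equal replicate numbers belong together, and samples were not paired by number. Deviations of equal numbers correlated at 0.035, 0.038 and -0.14, which cannot decide it with 3 replicates per group. Mean spot signals were not among the columns used, so that alternative was not run. Dye terms and the blocks of slide and scanner were fitted to single arrays, and the block of replicate number to the averaged replicates.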

Other observations

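The array also holds 17 probes whose identifiers begin with PDKT and 43 that begin with PIPA, each with 30 spots. Of the PDKT probes, limma called 0 at 21 h against 0.025 h-1, and 3 passed at 0.05 on the p value, adjusted or not, with changes over all 17 from -0.081 to 0.68 on the log2 scale. In the chemostat at 0.025 h-1 their mean log2 ratio to the pool ran from -6.59 to 7.20, and 6 of the 17 had a culture signal well above background on all 12 arrays. The files do not say what these probes detect. Of the PIPA probes limma also called 0, while 23 passed at 0.05 without adjustment and 19 with it, and their changes ran from -0.52 to 0.58.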
